A study of Mus musculus with 6 samples.

Results

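The glucocorticoid receptor gene Nr3c1 and 5 genes that glucocorticoids induce, Fkbp5, Tsc22d3, Ddit4, Sgk1 and Klf9, were followed through the blood mononuclear cells of diabetic and control mice. These 6 of the 31253 genes in the deposited count tables were found by their symbols. They were chosen from earlier results on these same libraries, by their Con against T2D values in marker-gated cell types, so those values are given as a description, without a test. Tests were kept for levels between cell types, detection of 2 of the genes in 1 cell, and other gene lists. The first 2 measures played no part in the choice. The lists were tested on the same contrast and were chosen with earlier results of these data known. Their tests are thus not independent of those results. Of the mice, all male and 12 to 13 weeks old, the control group (Con) had received saline and the diabetic group (T2D) streptozotocin, a toxin of insulin-producing beta cells, in both cases into the peritoneum. The series title adds a high-fat diet to the model. The sources used here do not give the strain, the diet of the control mice, the hour of blood collection, or whether a library holds 1 mouse or a pool. Each group had 3 libraries, called Con 1 to 3 and T2D 1 to 3, made with the BD Rhapsody system, which counts messenger RNA molecules per cell by unique molecular identifiers (UMIs).

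Glucocorticoids are steroid hormones of the adrenal cortex that enter cells and bind their receptor, the product of Nr3c1, which is held ready for the hormone by the chaperone Hsp90 and its partners. The bound receptor moves to the nucleus, binds DNA as a dimer at palindromic elements and raises or lowers the transcription of its targets, and it can also block NF-kB and AP-1. In blood these hormones follow a daily rhythm, move lymphocytes between blood and marrow, and dampen inflammation. Fkbp5 encodes a co-chaperone of Hsp90 that lowers the receptor's affinity for hormone and is itself induced by the receptor, a feedback loop. Tsc22d3 encodes GILZ, a leucine zipper protein that restrains NF-kB and AP-1. Ddit4 encodes an inhibitor of the growth kinase complex mTORC1 and is also induced by hypoxia and other stress, Sgk1 encodes a kinase that regulates ion transport and cell survival, and Klf9 encodes a transcription factor of the Krüppel-like family.

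In the GENCODE M21 annotation of GRCm38, the build that the submitters' processing notes name as mm10, Fkbp5 (ENSMUSG00000024222) lies on chromosome 17 from 28399094 to 28517527 on the minus strand. Tsc22d3 (ENSMUSG00000031431) lies on chromosome X from 140539528 to 140600659 on the minus strand, and Sgk1 (ENSMUSG00000019970) on chromosome 10 from 21882184 to 21999903 on the plus strand. Ddit4 (ENSMUSG00000020108) is also on chromosome 10, from 59949669 to 59951834 on the minus strand, and Klf9 (ENSMUSG00000033863) is on chromosome 19 from 23141226 to 23168134 on the plus strand. No exon of the 6 genes overlapped an exon of another annotated gene. RefSeq promoter windows (GRCm38.p6, the 250 bases before an annotated start) were found for 5 of the 6 genes, 12 windows in all. They were searched on both strands for 8 motifs: the receptor's palindrome (GNACA, any 3 bases, TGTNC), its half-site AGAACA, the FoxO motif TGTTTAC, the E-box CACGTG, the hypoxia motif ACGTG that the E-box contains, the cAMP element TGACGTCA, TATAAA and CCAAT. The palindrome occurred in 1 window, of Sgk1, as GAACAGAATGTTC, with its first base 188 bases before the start, and in 0.387% of the 32851 RefSeq promoter windows. The other 11 windows of Fkbp5, Tsc22d3, Ddit4, Sgk1 and Klf9 did not hold these letters. The half-site was in 16.1% of all windows, the FoxO motif in 3.17%, the E-box in 6.02%, the hypoxia motif in 16.6%, the cAMP element in 1.55%, TATAAA in 12.4% and CCAAT in 33.8%. The same Sgk1 window held 3 half-site matches and 1 E-box, and 1 of the 3 lies outside the palindrome, overlapping the E-box. The Fkbp5 window held 1 E-box and the Klf9 window 1 FoxO motif. The hypoxia motif had 1 match each in the Ddit4 and Klf9 windows. In the Fkbp5 window and the Sgk1 window with the palindrome it was matched within the E-box. TATAAA was found in Sgk1 windows, CCAAT in windows of Fkbp5, Ddit4, Sgk1 and Klf9, and the cAMP element in none of the 12 windows. A half-site also stood in the most upstream of the 3 Tsc22d3 windows and in 2 other Sgk1 windows, while the Tsc22d3 window printed below holds none of the motifs. These matches describe the letters only. Below are the Sgk1 window with the palindrome (chr10:21993640-21993889, plus strand), the Fkbp5 window (chr17:28486150-28486399, minus strand) and, of its most downstream annotated start, the 177 bases of the Tsc22d3 window that no annotated exon covers (chrX:140542669-140542845, minus strand). They are shown because Fkbp5 and Tsc22d3 are the genes whose values are compared first and the Sgk1 window is the one with the palindrome. Capitals mark matches to the palindrome, the half-site, the FoxO motif or the E-box, and overlapping matches run together.
Sgk1: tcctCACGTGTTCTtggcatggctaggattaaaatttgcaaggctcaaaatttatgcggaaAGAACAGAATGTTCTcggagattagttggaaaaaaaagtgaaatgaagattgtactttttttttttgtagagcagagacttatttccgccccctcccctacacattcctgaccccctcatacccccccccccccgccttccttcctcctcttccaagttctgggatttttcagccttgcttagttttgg
Fkbp5: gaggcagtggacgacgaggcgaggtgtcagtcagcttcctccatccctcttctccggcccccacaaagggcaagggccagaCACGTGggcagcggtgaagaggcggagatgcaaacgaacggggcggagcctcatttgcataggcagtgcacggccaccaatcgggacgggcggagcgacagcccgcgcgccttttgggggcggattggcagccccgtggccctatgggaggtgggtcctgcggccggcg
Tsc22d3: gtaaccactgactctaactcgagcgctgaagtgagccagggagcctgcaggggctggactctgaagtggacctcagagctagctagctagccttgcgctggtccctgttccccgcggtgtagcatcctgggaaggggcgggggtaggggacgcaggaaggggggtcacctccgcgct

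The 6 libraries held 49407 cell barcodes and 23574052 to 32321855 UMIs each, and 49025 barcodes passed the minimum of 200 genes and the limit of 20% mitochondrial UMIs. Any 2 libraries shared 65 to 89 barcode sequences. Cells were gated by the number of distinct marker genes with a UMI, with limits on markers of other lineages, and called by the panel they carry. This gave 24412 B-like, 4407 CD4 T-like, 5102 CD8 T-like, 1760 effector T-like (Ccl5, Nkg7, Gzmk and related genes), 905 NK-like, 644 classical monocyte-like, 907 non-classical monocyte-like and 855 neutrophil-like cells. Most neutrophils are lost in density separation, so those gated are the ones that stayed with the mononuclear layer. Regulatory T-like, gamma-delta T-like and eosinophil-like cells were under 30 in at least 1 library and were not tested, and 7478 cells were left ungated. UMIs were summed per library and type, and a level is given in CPM, the usual unit of counts scaled to a common total, here all UMIs of that type in that library. The labels do not tie the libraries to separate animals. The tests below therefore weigh differences against the variation among 6 libraries, and that variation could be technical.

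The levels of the 6 genes differed widely between blood cell types. In an edgeR quasi-likelihood fit with the library as a block, each type was set against the mean of the other 7. Of 48 pairs of a gene and a type, 37 passed at an adjusted p under 0.05, 16 higher and 21 lower. Calls of this kind were common among all 9481 genes tested: 76.4% in B-like, 70.7% in CD4 T-like, 73.3% in CD8 T-like, 61.3% in effector T-like, 51.2% in NK-like, 62.8% in classical monocyte-like, 55.1% in non-classical monocyte-like and 70.9% in neutrophil-like cells. Differences of this kind were thus the rule for genes in general, and the paragraphs that follow give the order of the types for each member. The SD is over all 6 libraries, Con and T2D together.

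**Figure D1:**
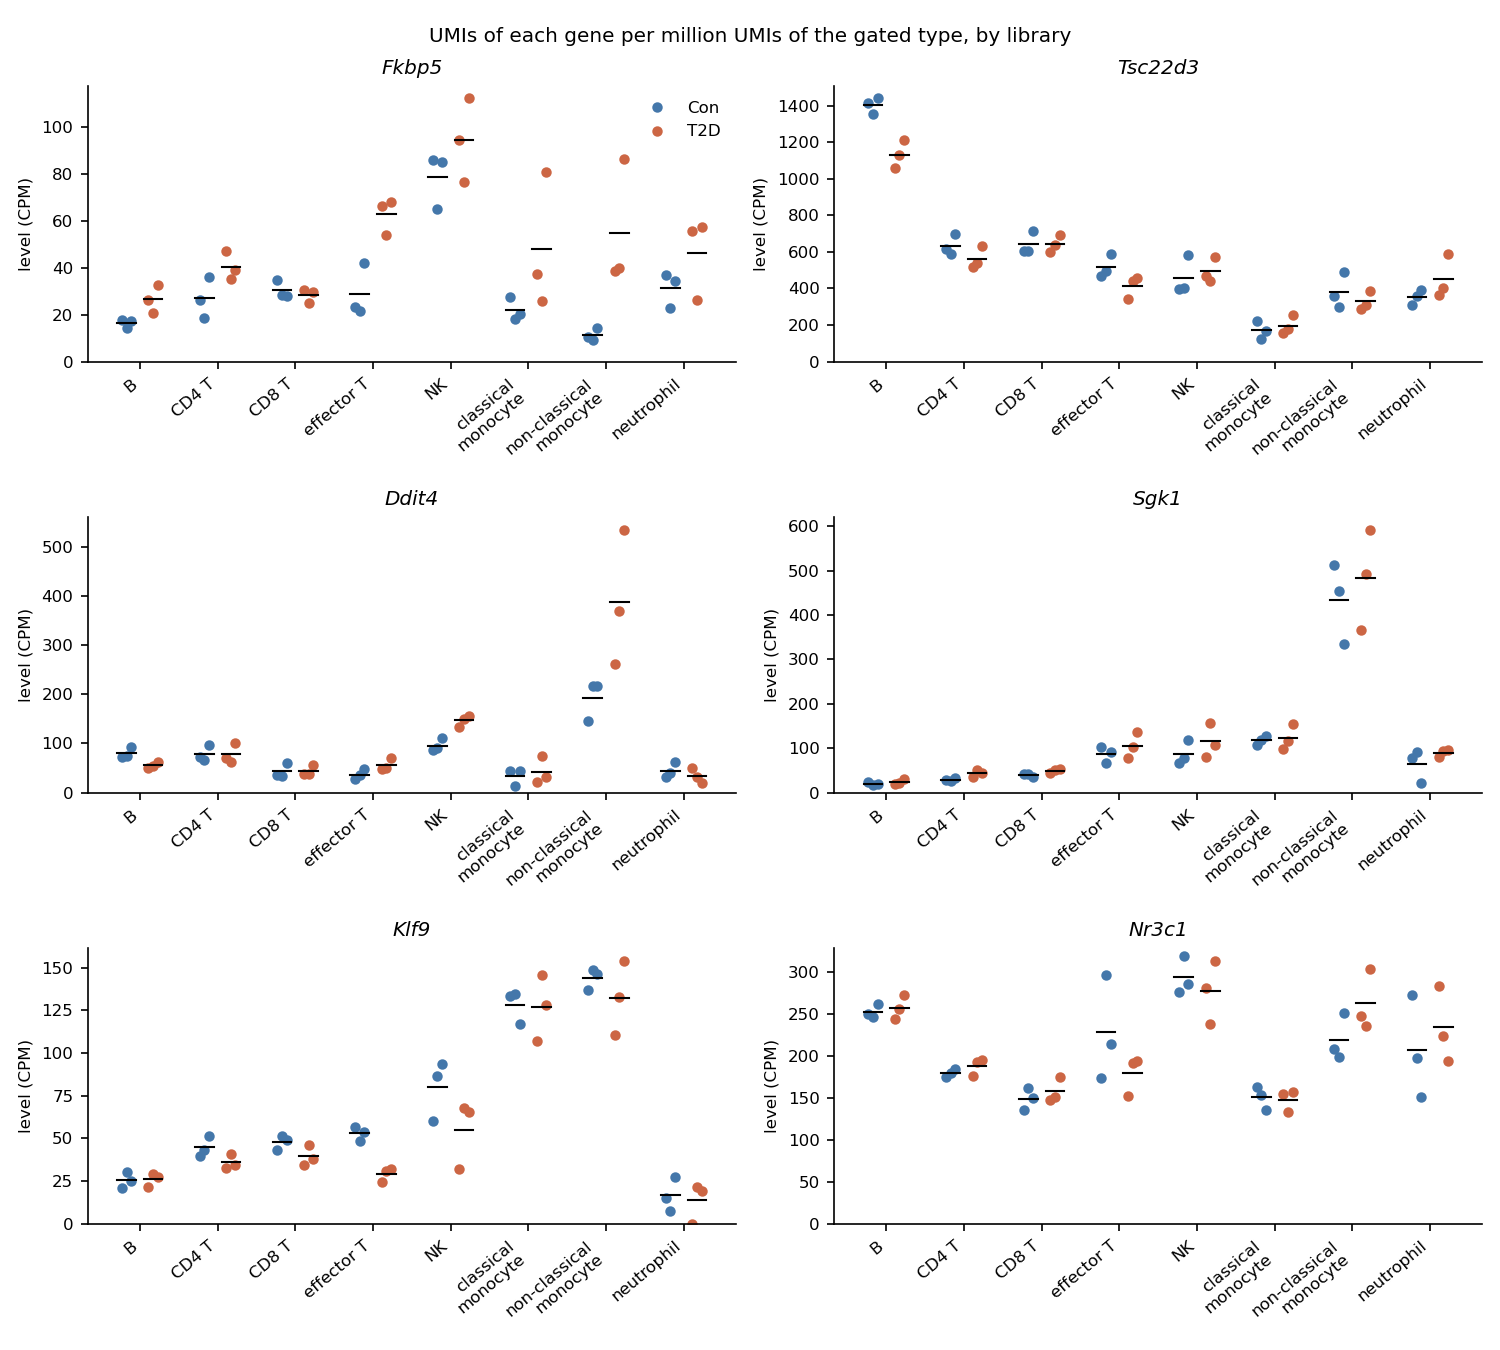
Level of each gene (CPM, linear axis from 0) in 8 gated cell types, 1 point per library, blue for Con and orange for T2D, with a black bar at the group mean. Tsc22d3 stands highest in B-like cells, Sgk1 and Ddit4 in non-classical monocyte-like cells, Klf9 in both monocyte types and Fkbp5 in NK-like cells, while Nr3c1 differs less between types.

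Nr3c1, the receptor, had the flattest profile of the 6, with a ratio of 1.91 between its highest and lowest mean. It was highest in NK-like cells at 285 ± 29.4 CPM (SD, n = 6) and lowest in classical monocyte-like cells at 149 ± 12.2 CPM. B-like cells held 255 ± 10.7 CPM, non-classical monocyte-like cells 241 ± 37.6 CPM and neutrophil-like cells 220 ± 50.4 CPM, and no neighbours in this order were free of overlap. Every type passed the test: CD4 T-like, CD8 T-like, effector T-like and classical monocyte-like cells lower, and the other 4 higher. With total UMIs as the only scaling, the calls in neutrophil-like (0.12 ± 0.09, adjusted p = 0.197, edgeR) and effector T-like cells (−0.09 ± 0.07, adjusted p = 0.257) were lost. The lowest fitted value was −0.55 ± 0.06 (log2, SE) in CD8 T-like cells (adjusted p = 6.39e-13).

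Fkbp5 was highest in NK-like cells, at 86.4 ± 16.1 CPM, where it exceeded the effector T-like level in 6 of 6 libraries. Over all 6 libraries it was lowest in B-like cells at 21.4 ± 6.85 CPM, but the order below NK-like cells depends on the group. In the Con libraries non-classical monocyte-like cells were lower (11.2 ± 2.84 CPM, SD, n = 3, beside 16.3 ± 1.98 CPM in B-like cells), and effector T-like cells stood at 28.9 ± 11.4 CPM. NK-like cells stood 1.06 ± 0.20 above the other types on the log2 scale (adjusted p = 2.93e-05) and B-like cells 1.06 below (−1.06 ± 0.12, adjusted p = 8.89e-10), both by edgeR. The types in between, from effector T-like (45.8 ± 20.4 CPM) to CD8 T-like cells (29.3 ± 3.32 CPM), overlapped each other, and among them CD8 T-like cells passed, lower (−0.49 ± 0.14, adjusted p = 0.00223).

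Tsc22d3 had another order, with B-like cells, the lowest for Fkbp5, at the top. B-like cells held 1268 ± 159 CPM, above every other type in each of the 6 libraries and without overlap with the next, CD8 T-like cells at 643 ± 51.1 CPM. CD4 T-like cells followed at 598.5 ± 65.0 CPM, then NK-like, effector T-like and neutrophil-like cells between 476 and 403 CPM, and non-classical monocyte-like cells at 355 ± 75.6 CPM. Classical monocyte-like cells were lowest at 184 ± 47.1 CPM, again without overlap with their neighbour. The fitted log2 difference was 1.48 ± 0.06 in B-like cells (adjusted p = 3.97e-24) and −1.56 ± 0.10 in classical monocyte-like cells (adjusted p = 4.56e-17). In neutrophil-like cells the direction depends on the scaling: 0.36 ± 0.10 with TMM factors (adjusted p = 0.00157), and −0.28 ± 0.09 with total UMIs as the only scaling (adjusted p = 0.00686), an alternative chosen after seeing the data. The median of all genes moved from −0.42 to −1.07 in that type between these scalings, from 0.04 to 0.32 in NK-like, from 0.09 to 0.27 in effector T-like, from 0.13 to 0.25 in B-like and from 0.08 to 0.21 in CD4 T-like cells. Of the 48 pairs, 3 others changed sign: Fkbp5 in neutrophil-like and non-classical monocyte-like cells and Tsc22d3 in NK-like cells. In all, 6 of the 37 calls were lost under that scaling: Nr3c1 in neutrophil-like and effector T-like, Tsc22d3 in NK-like and effector T-like, Sgk1 in neutrophil-like and Klf9 in CD8 T-like cells. It made 5 other calls: Fkbp5 and Sgk1 in effector T-like, Sgk1 and Klf9 in NK-like and Ddit4 in neutrophil-like cells.

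Ddit4, Sgk1 and Klf9 shared a peak in non-classical monocyte-like cells, patrolling monocytes marked by Ace, Ear2 and Adgre4. Sgk1 reached 458 ± 95.8 CPM there, without overlap with classical monocyte-like cells at 120 ± 19.1 CPM, and was lowest in B-like cells at 22.2 ± 4.66 CPM, a ratio of 20.6 between the ends. Its log2 difference from the other types was 2.95 ± 0.07 in non-classical monocyte-like cells (adjusted p = 3.65e-47) and −2.22 ± 0.08 in B-like cells (adjusted p = 2.01e-38). Ddit4 stood at 290 ± 140 CPM in non-classical monocyte-like cells (2.43 ± 0.17, adjusted p = 1.98e-15) and at 121 ± 30.2 CPM in NK-like cells, and at 38.4 ± 21.4 CPM in classical monocyte-like cells. Klf9 was at 138 ± 15.5 CPM in non-classical and 128 ± 13.7 CPM in classical monocyte-like cells, which overlapped, and both lay without overlap above NK-like cells at 67.6 ± 21.7 CPM. Its lowest level was in neutrophil-like cells at 15.1 ± 9.98 CPM, with 0 UMIs in T2D 1.

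Between the groups, the 5 induced genes did not move together. In each type, groups without overlap (every T2D library above, or every T2D library below, every Con library) were counted over all genes tested, and are given for reference beside the counts over the 6 genes. B-like cells had 3 of the 6 genes without overlap (19.6% of all genes tested), CD4 T-like cells 1 (22.0%), CD8 T-like cells 1 (18.5%), effector T-like cells 4 (18.7%), NK-like cells 1 (13.3%) and non-classical monocyte-like cells 2 (14.3%). Classical monocyte-like cells (12.5%) and neutrophil-like cells (16.7%) had none. In all, 12 of the 48 pairs did not overlap, 8 with T2D above and 4 below. Since the genes were chosen on this contrast, these counts say nothing of how unusual they are.

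**Figure D2:**
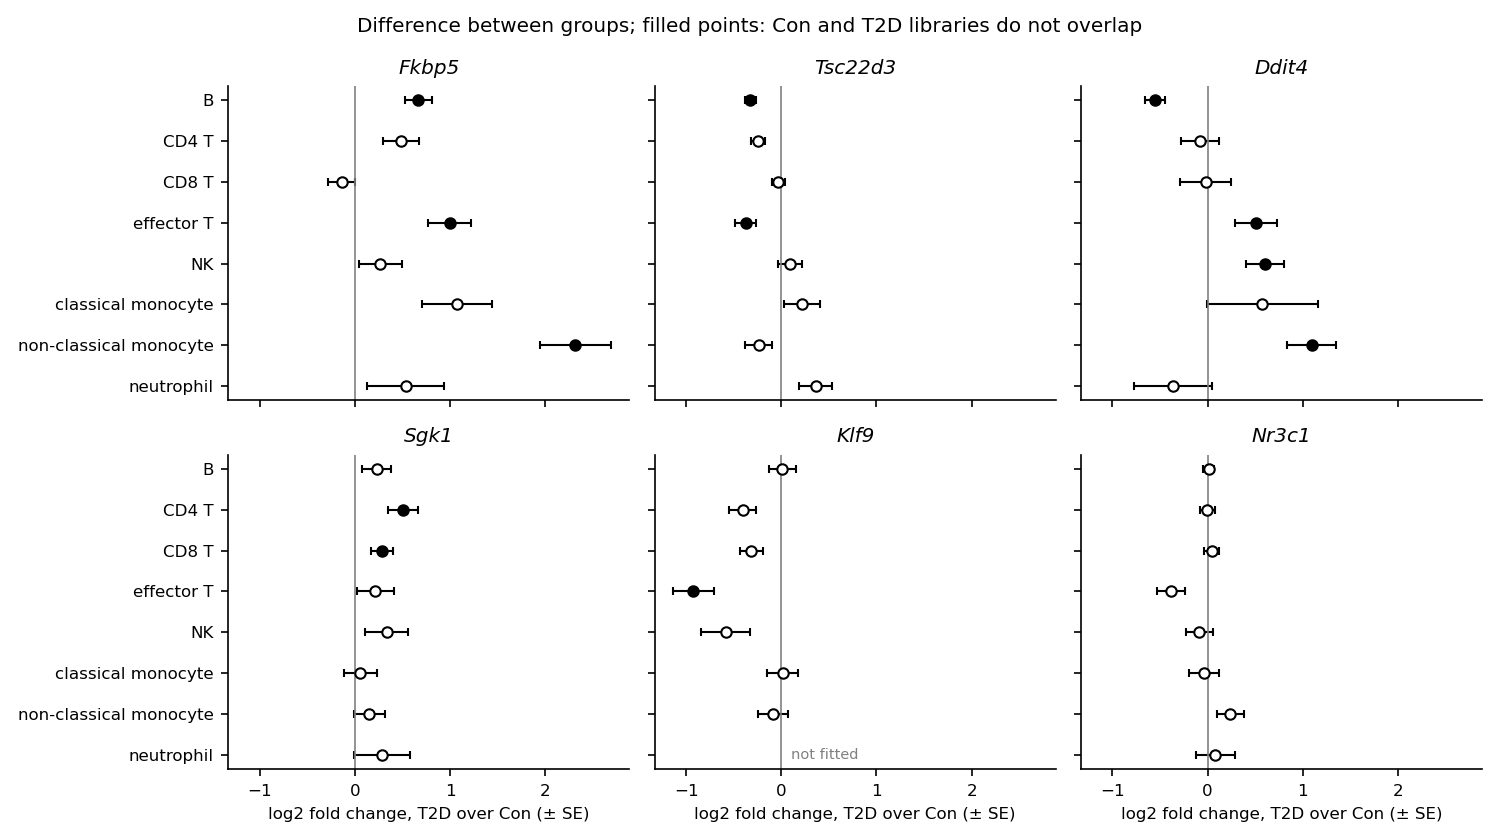
Log2 fold change of T2D over Con with its SE (horizontal bars) for each gene and gated type, from edgeR, with filled points where the 3 Con and 3 T2D libraries do not overlap. Fkbp5 lies right of 0 in 7 of 8 types, Sgk1 in 8 of 8, Tsc22d3 in 3 of 8 and Klf9 in 2 of 7, Ddit4 lies on both sides, and Nr3c1 lies between −0.39 and 0.24.

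The libraries of the 2 groups overlapped for Nr3c1 in all 8 types. In B-like cells it stood at 249, 246 and 262 CPM in Con 1, 2 and 3 and at 244, 256 and 272 CPM in T2D 1, 2 and 3, a log2 fold change of 0.01 ± 0.05 (SE). The widest fitted difference was in effector T-like cells, with 173, 296 and 214 CPM in Con and 153, 191 and 194 CPM in T2D (−0.39 ± 0.15), and Con 2 was the highest library there.

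Fkbp5 was higher in T2D in 7 of 8 types by its fitted value. In non-classical monocyte-like cells it stood at 10.2, 9.0 and 14.4 CPM in Con 1, 2 and 3 and at 38.7, 39.8 and 86.3 CPM in T2D 1, 2 and 3, with T2D 3 far above the others. The log2 fold change was 2.32 ± 0.38, from 1.78 without T2D 3 to 2.55, and it rests on few molecules: 19 UMIs over the Con libraries and 141 over the T2D libraries. In effector T-like cells it went from 23.3, 21.4 and 42.1 CPM in Con to 66.4, 54.0 and 67.8 CPM in T2D (1.00 ± 0.23), with 1.46 without Con 3, the highest Con library. In B-like cells it went from 17.9, 14.1 and 17.1 CPM to 26.0, 20.6 and 32.7 CPM (0.67 ± 0.14). The lowest T2D library lay above the highest Con library in all 3 types. In classical monocyte-like cells the groups overlapped, with 27.5, 18.1 and 20.5 CPM in Con and 37.3, 25.6 and 80.5 CPM in T2D (1.07 ± 0.37), and the value was 0.50 without T2D 3. CD4 T-like (0.48 ± 0.19), neutrophil-like (0.53 ± 0.40) and NK-like cells (0.27 ± 0.23) overlapped too, and CD8 T-like cells had −0.14 ± 0.14. Over the sum of all kept cells, where differences in cell makeup enter, Fkbp5 stood at 23.1, 19.1 and 23.6 CPM in Con and 37.2, 28.9 and 43.6 CPM in T2D (0.70 ± 0.14).

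Tsc22d3 was lower in T2D where it is most abundant. In B-like cells it stood at 1414, 1353 and 1442 CPM in Con 1, 2 and 3 and at 1057, 1130 and 1211 CPM in T2D 1, 2 and 3, a log2 fold change of −0.33 ± 0.06, with 12035 to 19767 UMIs in every library. The groups did not overlap, and the value stayed between −0.36 and −0.29 when each library was left out in turn. In effector T-like cells it went from 470, 494 and 590 CPM to 340, 441 and 460 CPM (−0.38 ± 0.11), also without overlap. The value was −0.25 without Con 3 and also without T2D 1. In CD4 T-like cells 617, 588 and 697 CPM in Con stood beside 517, 541 and 632 CPM in T2D (−0.24 ± 0.08), where T2D 3 lay above Con 1 and Con 2. Non-classical monocyte-like cells had −0.24 ± 0.14 and CD8 T-like cells −0.03 ± 0.07, and neutrophil-like (0.36 ± 0.17), classical monocyte-like (0.22 ± 0.19) and NK-like cells (0.09 ± 0.13) lay on the other side, all with overlap. Over all kept cells it was 970, 940.5 and 1062 CPM in Con and 735, 740 and 810 CPM in T2D (−0.42 ± 0.06). Fewer B-like cells (13012 in Con, 11400 in T2D) and a lower mean level in B-like cells (1403 CPM in Con, 1132 CPM in T2D) both enter that sum. Their parts in it were not separated. There, 2 of the 6 genes were without overlap, Fkbp5 above and Tsc22d3 below, against 27.9% of all 13758 genes tested.

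In B-like and in effector T-like cells, then, all 3 T2D libraries lay above all Con libraries for Fkbp5 and below them for Tsc22d3. These types were also divided by a marker, a choice made after seeing the data. In B-like cells with a UMI of Cd83, an activation marker, Tsc22d3 was at 1384 to 1444 CPM in Con and 1060 to 1190 CPM in T2D, and without one at 1333 to 1442 and 1054 to 1227 CPM. Fkbp5 was at 13.1 to 18.9 CPM in Con and 19.5 to 30.3 CPM in T2D in cells with Cd83, and at 14.8 to 16.9 and 21.7 to 34.5 CPM in cells without. In effector T-like cells with a UMI of Cd8a or Cd8b1, Fkbp5 was at 20.3 to 43.8 CPM in Con and 54.5 to 66.7 CPM in T2D. Tsc22d3 overlapped in that subset, with 458 to 582 CPM in Con and 346 to 479 CPM in T2D.

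Ddit4 differed in opposite directions between types. In B-like cells it was lower in T2D, with 73.2, 73.6 and 93.5 CPM in Con 1, 2 and 3 and 49.8, 53.7 and 63.0 CPM in T2D 1, 2 and 3 (−0.55 ± 0.11). In non-classical monocyte-like cells it was higher, with 146, 216 and 216 CPM in Con and 260, 368 and 534 CPM in T2D (1.09 ± 0.26). NK-like cells went from 85.7, 89.9 and 110 CPM to 134, 150 and 156 CPM (0.60 ± 0.20), and effector T-like cells from 27.2, 35.0 and 47.4 CPM to 48.5, 49.6 and 69.5 CPM (0.51 ± 0.22, and 0.80 without Con 3, 0.35 without Con 1 and 0.36 without T2D 3). No library of one group reached into the other in these 4 types. In the 1426 effector T-like cells with a UMI of Cd8a or Cd8b1 the groups overlapped, at 29.3, 27.7 and 43.8 CPM in Con and 40.3, 43.3 and 62.6 CPM in T2D. In CD4 T-like (−0.08 ± 0.20), CD8 T-like (−0.02 ± 0.27), neutrophil-like (−0.37 ± 0.41) and classical monocyte-like cells (0.57 ± 0.58) the groups overlapped. Over all kept cells, where differences in cell makeup enter too, Ddit4 stood at 69.1, 63.4 and 93.2 CPM in Con and 59.2, 70.8 and 97.1 CPM in T2D (−0.03 ± 0.24). The parts of makeup and of level per type in that sum were not separated. The B-like difference was seen in cells with Cd83 (64.6 to 86.6 CPM in Con, 44.1 to 58.3 CPM in T2D) and without (75.2 to 99.9 and 53.6 to 66.5 CPM).

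Sgk1 lay slightly higher in T2D in every type by its fitted value, with 2 types free of overlap. In CD4 T-like cells it stood at 27.8, 26.4 and 31.8 CPM in Con and 34.0, 51.2 and 43.6 CPM in T2D (0.50 ± 0.16). In CD8 T-like cells it stood at 41.5, 42.5 and 35.2 CPM in Con and 44.5, 51.4 and 52.4 CPM in T2D (0.29 ± 0.11). In non-classical monocyte-like cells, where it is most abundant, 512, 455 and 334 CPM in Con overlapped with 366, 492 and 592 CPM in T2D (0.15 ± 0.16, and −0.02 without Con 3). The other 5 types had values from 0.06 to 0.33, all with overlap. The lowest, in classical monocyte-like cells, turned to −0.09 without T2D 3 and to −0.008 without the top 2% of cells by UMIs.

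Klf9 was lower in T2D in effector T-like cells, at 56.4, 48.7 and 54.0 CPM in Con and 24.2, 30.5 and 32.2 CPM in T2D (−0.92 ± 0.22). The Con libraries all lay above the T2D libraries, and the value was −0.59 under a stricter gate with fewer cells. The same sign stood in NK-like (−0.58 ± 0.26), CD4 T-like (−0.41 ± 0.14) and CD8 T-like cells (−0.32 ± 0.12), with overlap in each. In the monocyte types, where its level is highest, the values were 0.01 ± 0.16 in classical and −0.09 ± 0.16 in non-classical cells. In neutrophil-like cells it was left out of the fit by the filter on low counts, so 47 of the 48 pairs have a fitted value.

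Markers of other cells moved with the groups in some of these types, and their part in the values above was not tested. Transcripts of red blood cells (5 genes) summed to 121 to 161 CPM in Con and 284 to 5189 CPM in T2D in NK-like cells, where Alas2 was at 0. They summed to 91.4 to 179 and 293 to 4720 CPM in effector T-like cells, to 122 to 136 and 259 to 732 CPM in non-classical monocyte-like cells, and to 121 to 406 and 642 to 1558 CPM in CD4 T-like cells. In B-like and CD8 T-like cells these red cell sums overlapped. In CD4 T-like cells, where Sgk1 was higher, the 6 effector T genes summed to 87.8 to 142 CPM in Con and 287 to 411 CPM in T2D, the 8 NK genes to 35.3 to 52.0 and 53.0 to 65.8 CPM, and the non-classical monocyte panel to 229 to 258 and 292 to 339 CPM. In CD8 T-like cells, where Sgk1 was higher as well, the effector T genes summed to 1224 to 1496 and 1564 to 1681 CPM, and the 8 B cell genes were lower in T2D, at 185 to 226 and 165 to 176 CPM. No gene of these panels was at 0. In B-like cells the 9 T cell genes summed to 142 to 197 CPM in Con and 215 to 232 CPM in T2D, the 6 effector T genes to 29.3 to 43.2 and 70.4 to 95.2 CPM, and the 8 NK cell genes to 16.0 to 24.8 and 32.7 to 44.8 CPM. The smaller CD8 T and regulatory T panels were higher there too, and no gene of these 5 panels was at 0. In non-classical monocyte-like cells, 7 platelet genes summed to 72.0 to 96.9 CPM in Con and 10.8 to 51.6 CPM in T2D. The 7 conventional dendritic genes summed to 311 to 356 and 175 to 305 CPM there, again with none at 0. The T2D sums of the NK, effector T, regulatory T and eosinophil panels lay above the Con sums in that type, and 3 eosinophil genes, Epx, Prg2 and Siglecf, were at 0.

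The effector T-like gate, where 4 members differed without overlap, held 400 Con and 1360 T2D cells and was not alike in the groups. Its own 6 genes overlapped, at 10472 to 14015 CPM in Con and 13630 to 18526 CPM in T2D. The NK panel, which this gate did not limit, overlapped too, at 1544 to 2696 CPM in Con and 2151 to 2886 CPM in T2D. Cd4 was at 19.4 to 57.9 CPM in Con and 90.6 to 157 CPM in T2D, and the CD8 genes summed to 1614 to 1870 and 2018 to 2049 CPM. The T cell panel was at 6356 to 6939 and 7067 to 7731 CPM, the gamma-delta T panel at 241 to 360 and 121 to 234 CPM, the non-classical monocyte panel at 472 to 591 and 744 to 846 CPM with Pparg at 0, and the conventional dendritic panel at 46.7 to 105 and 109 to 172 CPM with Clec10a at 0. A different mix of cells in the gate and a different level per cell cannot be told apart in these sums. In CD4 T-like and CD8 T-like cells the gate's own genes also lay higher in T2D, Cd4 at 742 to 798 CPM in Con and 832 to 838 CPM in T2D and the CD8 genes at 1886 to 1924 and 2142 to 2283 CPM.

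The same contrast was fitted for 35 other genes that glucocorticoids induce in blood or other tissues. Of these, 29 were tested in at least 1 type. Most did not pass in either direction, and those that passed were mostly lower in T2D. Over the 8 types, 192 pairs of a gene and a type were tested, and 14 passed lower and 3 higher, for 9 genes (edgeR, adjusted p under 0.05 over all genes of the type). By type this was 1 higher and 2 lower of 27 in B-like cells (1.42% of all genes called), 1 and 5 of 26 in CD4 T-like (3.85%), 0 and 2 of 25 in CD8 T-like (1.51%), 0 and 2 of 25 in effector T-like (1.76%) and 0 and 1 of 21 in NK-like cells (0.399%). It was 1 and 0 of 23 in classical monocyte-like (0.529%), 0 and 0 of 25 in non-classical monocyte-like (0.808%; 4 higher and 6 lower at an unadjusted p under 0.05, and 0 by DESeq2) and 0 and 2 of 20 in neutrophil-like cells (3.55%). Over the 8 types the lower calls numbered 9 without Con 3. The higher calls numbered 0 without Con 2, 1 under a stricter gate added after seeing the data, and 8 (beside 17 lower) with no filter on low counts. With the library number as a block both counts were larger, and they are given below with the other processing alternatives. Over all kept cells 4.21% of genes were called. The list's median log2 fold change lay between −0.25 in effector T-like and 0.04 in classical monocyte-like cells and was below 0 in 7 of 8 types, while the median of all genes stayed between −0.00798 and 0.00805.

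**Figure D3:**
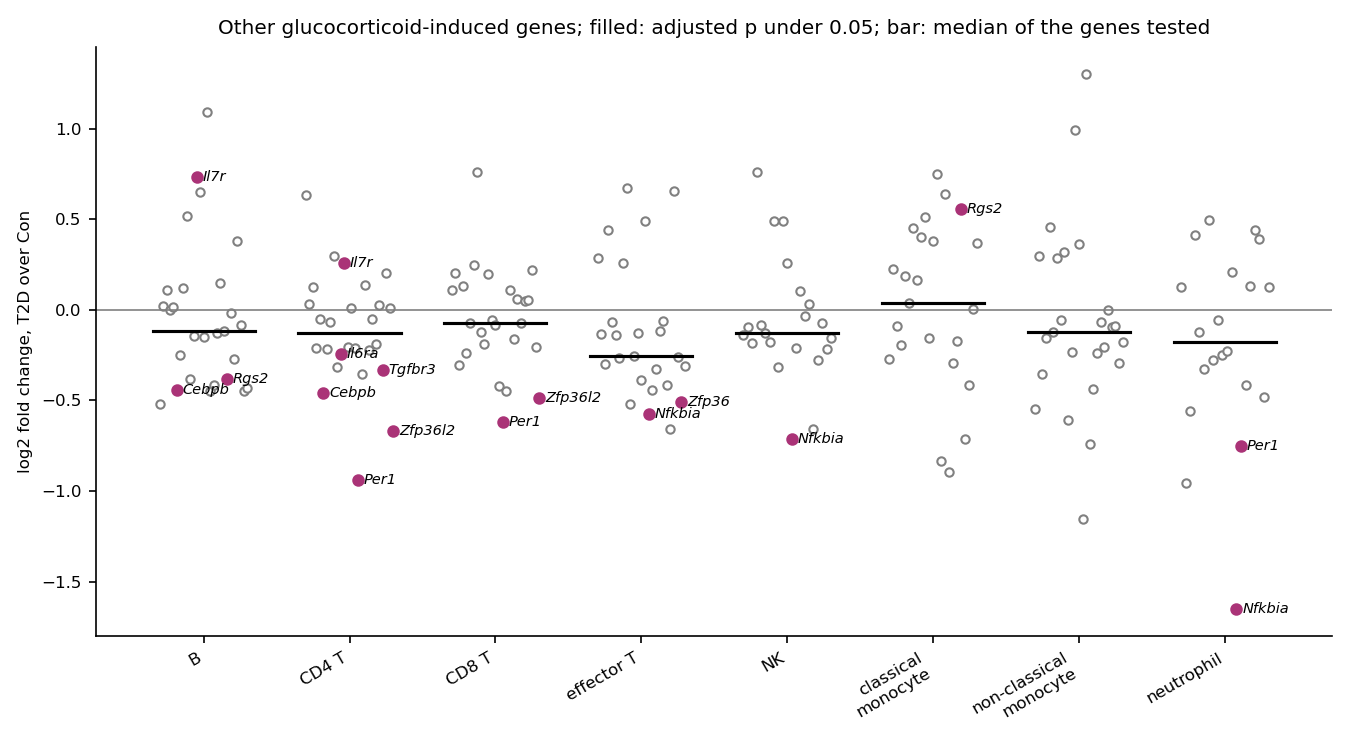
Log2 fold change of T2D over Con for the 35 other glucocorticoid-induced genes, 1 point per gene tested in a gated type, with filled and named points for those at an adjusted p under 0.05 and a black bar at the list's median. Per1, Nfkbia and Zfp36l2 account for 8 of the 14 filled points below 0, and the 3 filled points above 0 are Il7r in B-like and CD4 T-like cells and Rgs2 in classical monocyte-like cells.

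Per1, a clock gene that the receptor induces directly, fell in CD4 T-like cells from 514, 527 and 513 CPM in Con to 261, 302 and 289 CPM in T2D (−0.94 ± 0.07, adjusted p = 6.60e-11) and in CD8 T-like cells from 335 ± 42.0 to 224 ± 17.8 CPM (SD, n = 3; −0.62 ± 0.08, adjusted p = 5.17e-05). In neutrophil-like cells Nfkbia, whose protein holds NF-kB in the cytoplasm, went down from 10273 ± 939 to 3300 ± 776 CPM (−1.65 ± 0.16, adjusted p = 3.18e-08). These 3 of the 17 calls held when each library was left out in turn. Per1 also fell in neutrophil-like cells (−0.75 ± 0.16, adjusted p = 0.00321, edgeR) and lost its call without Con 2 (0.0785). Nfkbia also fell in NK-like (−0.71 ± 0.14) and effector T-like cells (−0.58 ± 0.12) and lost its call without Con 3 (adjusted p = 0.0565) and without Con 1 (0.0848), respectively. Zfp36l2, which destabilises messenger RNA, fell in CD4 T-like (−0.67 ± 0.09) and CD8 T-like cells (−0.49 ± 0.08), where T2D 3 decides the call (adjusted p = 0.0604 and 0.163 without it). Its relative Zfp36 fell in effector T-like cells (−0.51 ± 0.11; 0.0754 without Con 1).

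The remaining calls of that list each depended on several libraries. Cebpb, a transcription factor, fell in B-like cells (−0.44 ± 0.09, lost without Con 2, Con 3, T2D 2 or T2D 3, highest adjusted p = 0.17 by edgeR) and in CD4 T-like cells (−0.46 ± 0.11, lost without Con 1, Con 3 or T2D 3, 0.12). In CD4 T-like cells Il6ra (−0.24 ± 0.07, lost without any 1 library except T2D 1, 0.156) and Tgfbr3 (−0.33 ± 0.09, lost without Con 1, Con 3, T2D 1 or T2D 2, 0.115) fell. Il7r, the receptor for interleukin-7, rose in CD4 T-like cells (0.26 ± 0.07, lost without Con 2, Con 3 or T2D 1, 0.229). It also rose in B-like cells, from 20.4 ± 3.66 to 34.6 ± 5.68 CPM (0.73 ± 0.14, lost without Con 1, Con 2, T2D 1 or T2D 3, 0.0953), in which the T cell genes given above were higher as well. Rgs2, a brake on G protein signalling, fell in B-like cells (−0.38 ± 0.08, lost without any 1 library except T2D 2, 0.0890) and rose in classical monocyte-like cells (0.56 ± 0.11, lost without Con 2 or T2D 2, 0.218).

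The genes that carry the receptor's signal were counted in the same way. Of 26 genes of chaperones, cofactors and hormone-converting enzymes, 171 pairs of a gene and a type were tested, with 2 higher and 0 lower calls by edgeR, beside the 0.399% to 3.85% of all genes called in a type. At an unadjusted p under 0.05 there were 17 higher and 5 lower, and DESeq2 gave 1 higher and 0 lower. Stip1, which links Hsp70 and Hsp90, rose in CD8 T-like cells (0.41 ± 0.09, adjusted p = 0.0205, edgeR; lost without Con 1, Con 2, Con 3 or T2D 2, highest 0.163). Nrip1, a corepressor of nuclear receptors, rose in effector T-like cells (0.61 ± 0.16, adjusted p = 0.0329, edgeR; lost without Con 1, Con 2 or T2D 3, highest 0.172). Fkbp4, the paralog of Fkbp5 that acts in the opposite way on the receptor, had 0.19 ± 0.07 in B-like cells (adjusted p = 0.206, edgeR). In the list of 20 inflammatory genes that glucocorticoids repress, 4 of 90 pairs were higher and 6 lower, beside the same shares of all genes. By edgeR Rel, an NF-kB subunit, fell in classical monocyte-like cells (−1.06 ± 0.14, adjusted p = 2.00e-05), in non-classical monocyte-like cells (−0.88 ± 0.12, adjusted p = 2.49e-05) and in neutrophil-like cells (−1.11 ± 0.19, adjusted p = 0.000111). Its call in classical monocyte-like cells was lost under the stricter gate added after seeing the data. Irf1 rose in CD8 T-like cells (0.47 ± 0.08, adjusted p = 0.00164, edgeR).

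Several members answer to other signals as well, and the lists for these were counted in the same way. For reference, 0.399% to 3.85% of all genes tested in a type were called. Some genes stand in several lists, so these counts are not separate from those above. The calls of Per1 are counted again among the clock genes, including its lower calls in CD4 T-like, CD8 T-like and neutrophil-like cells. Those of Il7r are counted again among the FoxO targets, and that of Zfp36 among the immediate early genes. Immediate early genes, switched on by receptor signals and by handling of cells, had the most calls: 5 higher and 32 lower of 174 pairs, and 19 of the 37 calls, 18 of them lower, held when each library was left out. Nr4a3 fell in CD4 T-like (−2.34 ± 0.19, adjusted p = 8.96e-06) and CD8 T-like cells (−1.52 ± 0.15, adjusted p = 1.33e-06), Junb in B-like cells (−0.74 ± 0.08, adjusted p = 0.00105), and Csrnp1 in non-classical monocyte-like cells (−1.26 ± 0.16, adjusted p = 7.77e-06). In classical monocyte-like cells Fos rose instead (0.69 ± 0.09, adjusted p = 2.00e-05). These lower levels stand beside the lower Tsc22d3 and Ddit4 in B-like cells, and their part in it was not tested. Targets of FoxO, which also drives Klf9 and Tsc22d3, had 5 higher and 3 lower of 167 pairs. Among them Klf2, a regulator of quiescence, was higher in classical monocyte-like cells (0.91 ± 0.12, adjusted p = 2.00e-05, edgeR). That call was lost under the stricter gate added after seeing the data. Hypoxia and integrated stress response genes, which share inducers with Ddit4, had 2 higher and 2 lower of 100 pairs. In B-like cells Hilpda, a lipid droplet protein gene, was higher (0.55 ± 0.11, lost without Con 1, Con 2, T2D 2 or T2D 3, highest adjusted p = 0.0918) and Slc2a1, the glucose transporter gene, lower (−0.43 ± 0.08, lost without Con 2 or Con 3, 0.118). Clock genes had 2 higher and 4 lower of 81 pairs. By edgeR Bhlhe40, a clock repressor, was higher in CD4 T-like cells (1.67 ± 0.20, adjusted p = 9.21e-07) and lower in neutrophil-like cells (−1.26 ± 0.25, adjusted p = 0.00109). The neutrophil-like call of Bhlhe40 was lost under the stricter gate. Paralogs of the members had 2 higher and 6 lower of 97 pairs, among them Klf16 in B-like, CD4 T-like and CD8 T-like cells (−0.64 ± 0.09, −1.01 ± 0.13 and −0.77 ± 0.11; adjusted p = 0.00166, 3.88e-06 and 0.000197).

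Whether the members appear together in single cells was asked within each library. Cells were thinned to 1500 UMIs, and the share of cells with a UMI of one gene was compared between cells with and without a UMI of another, where each gene was found in at least 50 cells of every library. This gave 17 tests, 15 of them in B-like cells, and 0 passed (two-sided exact sign-flip test over 6 libraries, Benjamini-Hochberg adjusted, lowest adjusted p = 0.319). At an unadjusted p under 0.05 there were 0 as well, and the smallest p that 6 libraries allow is 0.0312. At that limit at least 11 of the 17 tests would have to reach it for any to pass the adjustment, so a single pair could not pass, and the count of 0 does not show that the genes appear independently. Tsc22d3 had a UMI in 81.7% of B-like cells with Fkbp5 and in 81.2% of those without. The mean log2 ratio of these shares was −0.0005 ± 0.0855 (SD, n = 6), above 0 in 3 of 6 libraries. Ddit4 with Sgk1 had the mean ratio 0.21 ± 0.19, above 0 in 5 of 6 libraries (exact p = 0.0625), and Sgk1 with Nr3c1 0.18 ± 0.15 (exact p = 0.0625). In CD8 T-like cells Tsc22d3 and Nr3c1 lay the other way, with Nr3c1 in 16.8% of cells with Tsc22d3 and 19.5% of those without (−0.23 ± 0.21, exact p = 0.0625). Thinned to 1000 UMIs instead, B-like cells gave 0.60 ± 0.43 for Ddit4 with Sgk1 (exact sign-flip p = 0.0625) and −0.01 ± 0.28 for Sgk1 with Nr3c1 (0.875). Tsc22d3 with Nr3c1 in CD8 T-like cells had −0.10 ± 0.23 at that depth (0.281). Before thinning, 33 of 34 mean ratios were above 0, beside 8 of 17 after thinning to 1500 UMIs. No gated type is known to lack these genes, so the level of free RNA in the droplets or wells was not measured for them.

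**Figure D4:**
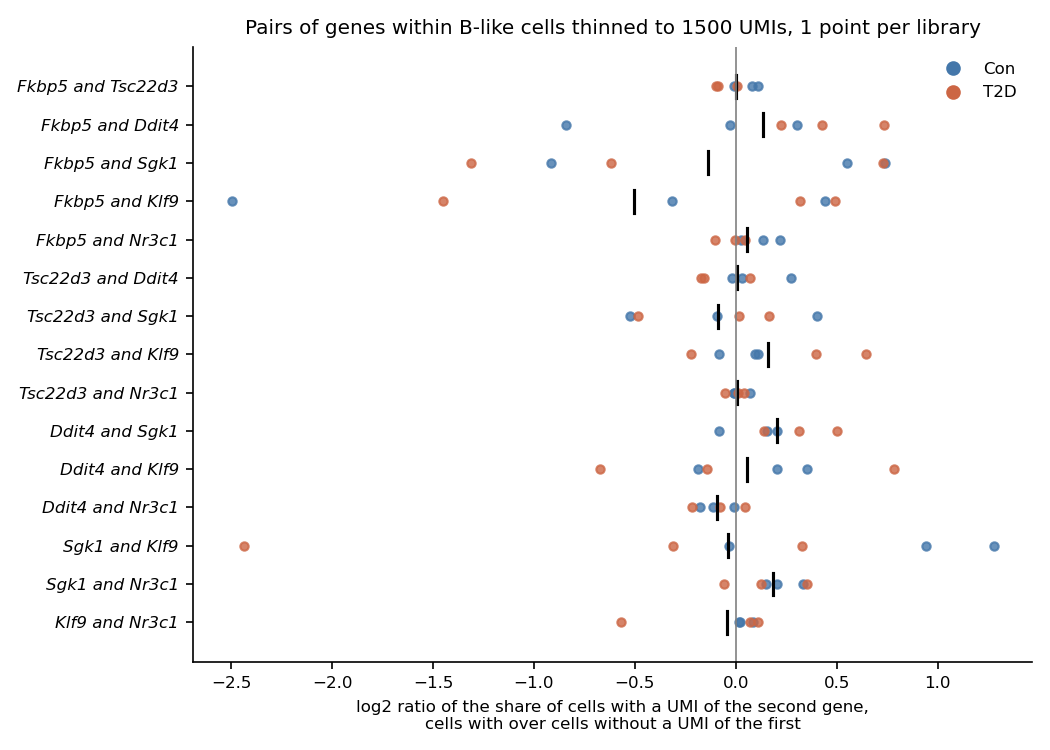
Log2 ratio of the share of B-like cells with a UMI of the second gene, in cells with over cells without a UMI of the first, for the 15 pairs of genes, with 1 point per library (blue Con, orange T2D), a black bar at the mean and cells thinned to 1500 UMIs. Fkbp5 with Tsc22d3 and Tsc22d3 with Nr3c1 lie close to 0, while Fkbp5 with Klf9 and Sgk1 with Klf9 scatter most, with SDs of 1.22 and 1.32.

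The genes whose level followed that of Fkbp5 most closely over the 8 types, among 8298 genes that reached 20 CPM in at least 1 type, were Tpm3, Pdcl3, Prex1, Tpm3-rs7 and Itga2 (Pearson r of mean log2 CPM from 0.993 to 0.951). Tpm3-rs7 is a near-identical copy of Tpm3, so UMIs of the pair may be split between them. For Tsc22d3 they were Zbtb37, Acbd3, Cables2, Strbp and Prdm2 (r from 0.9675 to 0.952). None of the other members was among them: with Fkbp5 the other 5 had r from −0.35 to 0.37, and with Tsc22d3 from −0.71 for Sgk1 to 0.38 for Nr3c1. These correlations describe 8 types of the same 6 libraries.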

How the data were processed

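UMI counts per gene and cell barcode were deposited by the authors as raw whole numbers, 1 matrix per library. CASAVA 1.8, UMI-tools, Seurat and the build mm10 are listed, without roles, in the submitters' processing notes. For the aligner and the annotation release, the sources used here give nothing. The submitters give no strand setting, so antisense reads cannot be told apart. Groups come from the sample titles.

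The 6 genes, the gene lists and the tests were chosen with earlier results of these data known. Marker panels came with them, and the gate thresholds were set while looking at marker detection: at least 4 own markers (5 for monocytes and neutrophils, 2 for eosinophils) and at most 2 of other lineages (3 for monocyte and neutrophil markers). Some gates departed from these limits. The T cell gates had no limit on NK markers. NK-like cells could hold up to 4 T cell markers, but none of Cd3d, Cd3e and Cd3g. Neutrophil-like and eosinophil-like cells could hold up to 4 monocyte markers. B-like cells had 674 cells 1 marker below the threshold, the other tested types 21 to 129. No doublet caller was run. The limits on other lineages remove doublets of unlike cells only, and mixtures of T and NK cells were not limited in the T cell gates. Libraries differed by more than sampling noise (lowest chi-square over degrees of freedom 10.2).

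UMIs were summed per library and type with at least 30 cells in each library and fitted with edgeR 4.0.16 (R 4.3.3): TMM factors, filterByExpr, robust quasi-likelihood test, Benjamini-Hochberg adjustment over all genes of the type. The SE is the absolute log2 fold change divided by the root of the F statistic. Types were compared in 1 fit with the library as a block. On simulated counts with 2-fold changes, 96 of 195 changed genes were recovered in B-like and 42 of 185 in NK-like sums. The simulation gave every gene the same fixed spread between libraries, not the spread of these libraries. The shares recovered therefore do not give the power of the fit on these data. Shares of cells were compared after thinning (numpy 2.4.6). Alternatives were the library number as a block, RLE factors, DESeq2 1.42.0, no filter, each library left out, other gates, at most 10% mitochondrial UMIs and removal of the top 2% of cells by UMIs. Genes outside the 6 are named if they passed in a list, at most 6 per list and type, plus genes that did not pass as examples. One list symbol and 2 marker symbols did not match the files.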

Additional observations from a re-analysis of the deposited data

Results flagged for a closer look

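Ddit4 is the one of the 6 genes whose T2D libraries all lay above the Con libraries in some types and all below in another. The difference between its log2 fold changes was 1.65 for non-classical monocyte-like minus B-like cells, 1.155 for NK-like minus B-like cells and 1.06 for effector T-like minus B-like cells. The difference itself was not tested, because the gene was chosen on this contrast and the types come from the same 6 libraries.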

How the results depend on the processing

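Of 674 refits of the members' log2 fold changes, 668 stayed within 1 SD of the spread between libraries, and the 12 pairs of a gene and a type without overlap kept their sign in each. The sign changed in 37 refits of 14 other values, of which 1 had been over 0.3 in size (Ddit4 in classical monocyte-like cells, 0.57, and −0.25 without T2D 2). Fkbp5 moved to 1.46 in effector T-like cells without Con 3 (lowest of the left-out values 0.83) and to 1.78 in non-classical monocyte-like cells without T2D 3 (highest 2.55). Higher calls among the other glucocorticoid-induced genes numbered 3, and 8 with no filter on low counts, 1 under the stricter gate added after seeing the data, and 0 (without Con 2) to 4 with a library left out. Lower calls numbered 14, and 9 (without Con 3) to 16 with a library left out. The labels do not say whether equal library numbers pair the libraries, and correlations of deviations do not settle it. Within types these correlations lay between −0.085 and 0.080, where counting noise in genes of low count also draws them towards 0. In 0 of 8 types did every library correlate best with its own number. Over all kept cells the correlations were −0.25, 0.40 and 0.35, with 4 libraries best with their own number. With the replicate block, the calls of this glucocorticoid-induced list were 11 higher and 26 lower, and the largest move of a member's value was 0.11. Of the 86 list calls, 36 kept their call with each library left out and 32 under every alternative run. Calls between types ranged from 32 (Con libraries only) to 38, and 0 pairs were called together in cells at 1000 UMIs or without thinning (lowest adjusted p 0.938 and 0.133), where at least 11 of 17 and 22 of 34 tests would have to reach the smallest exact p for any to pass. The planned gate with no marker of another lineage left enough cells in B-like cells only, so it was not run for other types or between types. Fkbp5 in non-classical monocyte-like cells rests on 2 to 10 UMIs per Con library, and Klf9 in neutrophil-like cells on 0 to 10, which limits both.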

Other observations

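In the types with under 30 cells in some library, pooled levels are given with exact Poisson 95% intervals that cover counting error only, and no test was made. In regulatory T-like cells (56 in Con, 201 in T2D) Fkbp5 was at 52.4 CPM (25.1 to 96.4) in Con and 81.6 CPM (63.6 to 103) in T2D, and Tsc22d3 at 430 CPM (342 to 533) and 427 CPM (384 to 473). In eosinophil-like cells (104 and 59) Tsc22d3 was at 786 CPM (645 to 949) in Con and 520 CPM (373 to 706) in T2D, and Fkbp5 rests on 2 and 1 UMIs. In gamma-delta T-like cells (63 and 97) Fkbp5 was at 71.8 CPM (42.5 to 113) and 73.5 CPM (48.8 to 106), and Klf9 at 87.7 CPM (55.0 to 133) and 44.6 CPM (26.0 to 71.4). The intervals of the 2 groups overlap for each of these values.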
